A study of Homo sapiens with 9 samples.

Results

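The genes described here are snoRNA host genes and nuclear long noncoding RNAs of uCaco-2, the undifferentiated form of the human colon adenocarcinoma line Caco-2. They were taken from the count table by symbol: every SNHG symbol followed by a number alone, with GAS5, ZFAS1, CYTOR, MALAT1 and NEAT1, which gave 33 of 60591 symbols. Of these 33 members, 29 passed the filter on low counts. SNHG27 and SNHG28 had 0 counts in every library, SNHG31 had 2 to 8 and SNHG22 had 2 to 11, and these 4 were not tested.

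The cells of all 3 groups were grown for 24 h with 0.5% DMSO. Control cells received nothing else, CoCl2 cells received 300 µM cobalt chloride, and OD cells received 5 µM of the oxyquinoline derivative 4896-3212. Both compounds are used to stabilise hypoxia-inducible factor (HIF), and the study asked which genes respond to them. Each group had 3 biological replicates of this single cell line, and poly(A)-selected messenger RNA was sequenced. The compounds differ in kind and in dose, so differences between them cannot be assigned to kind or dose.

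A snoRNA host gene carries small nucleolar RNAs in its introns. The snoRNAs are released after splicing and guide the chemical modification of other RNAs: box C/D snoRNAs guide methylation of ribose, box H/ACA snoRNAs guide pseudouridylation, and scaRNAs do the same for spliceosomal RNAs in Cajal bodies. The spliced exons of many SNHG genes code for no known protein and are often degraded by nonsense-mediated decay when they reach the ribosome. Many hosts start at a tract of pyrimidines (C or T), the 5' terminal oligopyrimidine type of start that ribosomal protein genes also use. NEAT1 is the scaffold of paraspeckles, MALAT1 collects in nuclear speckles beside splicing factors, and CYTOR is a cytoplasmic and nuclear RNA transcribed from a locus with a near-identical copy, MIR4435-2HG.

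RefSeq placed 11 snoRNAs in GAS5, 8 in SNHG1 and 83 in SNHG14, and none in CYTOR, MALAT1, NEAT1, SNHG27 or SNHG28. By the kind of snoRNA carried, 12 members held box C/D snoRNAs alone, 9 held box H/ACA snoRNAs alone, 3 held both (GAS5, SNHG12 and SNHG25) and 4 held a scaRNA (SNHG10, SNHG20, SNHG21 and SNHG22). The windows around the starts of the members that the results turn on are shown so that the tracts can be compared. Each window holds 80 bases of RefSeq on GRCh38.p14, 40 of them before the annotated start, read along the strand of the gene from 5' to 3'. Capitals mark the longest run of C and T that overlaps the 10 bases on either side of the start. The windows are CYTOR chr2:87455387-87455466 on the plus strand, ZFAS1 chr20:49278602-49278681 on the plus strand, MALAT1 chr11:65497698-65497777 on the plus strand, SNHG1 chr11:62855846-62855925 on the minus strand, SNHG17 chr20:38435289-38435368 on the minus strand, SNHG29 chr17:16438947-16439026 on the plus strand, SNHG4 chr5:139274061-139274140 on the plus strand, SNHG26 chr7:22854200-22854279 on the plus strand, SNHG20 chr17:77088603-77088682 on the plus strand, SNHG11 chr20:38446614-38446693 on the plus strand and SNHG5 chr6:85678694-85678773 on the minus strand.
CYTOR: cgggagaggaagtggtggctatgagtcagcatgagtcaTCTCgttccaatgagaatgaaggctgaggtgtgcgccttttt
ZFAS1: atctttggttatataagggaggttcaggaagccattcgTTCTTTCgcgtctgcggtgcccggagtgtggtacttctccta
MALAT1: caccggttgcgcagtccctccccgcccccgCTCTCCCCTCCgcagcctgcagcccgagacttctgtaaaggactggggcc
SNHG1: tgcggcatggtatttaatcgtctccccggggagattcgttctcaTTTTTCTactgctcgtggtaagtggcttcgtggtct
SNHG17: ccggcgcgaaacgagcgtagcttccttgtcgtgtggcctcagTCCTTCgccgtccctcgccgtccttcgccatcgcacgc
SNHG29: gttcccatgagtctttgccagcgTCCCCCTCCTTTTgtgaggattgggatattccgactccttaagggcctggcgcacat
SNHG4: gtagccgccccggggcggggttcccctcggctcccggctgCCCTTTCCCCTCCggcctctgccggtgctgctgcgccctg
SNHG26: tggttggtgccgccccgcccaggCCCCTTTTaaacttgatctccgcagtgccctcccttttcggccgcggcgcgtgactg
SNHG20: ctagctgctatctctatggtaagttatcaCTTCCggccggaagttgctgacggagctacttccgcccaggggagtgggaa
SNHG11: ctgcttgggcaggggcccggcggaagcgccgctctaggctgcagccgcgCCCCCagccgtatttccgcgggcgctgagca
SNHG5: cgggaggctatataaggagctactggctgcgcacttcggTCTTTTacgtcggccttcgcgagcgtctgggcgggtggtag

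The run in capitals was 13 bases long in SNHG4 and SNHG29, 11 in MALAT1, 8 in SNHG26, 7 in SNHG1 and ZFAS1, 6 in SNHG5 and SNHG17, 5 in SNHG11 and SNHG20 and 4 in CYTOR. Promoters were found for 28 of the 33 members, and NEAT1, SNHG6, SNHG9, SNHG15 and SNHG25 had none in the table used. A run of at least 6 bases was present in 19 of the 28, against 31.1% of all 35116 promoters. A run of at least 8 was present in 9 of the 28, against 15.2%. A run was counted before, across or after the start, so these are not counts of RNAs that begin with a tract. The runs of SNHG29, SNHG26 and SNHG20 ended before the annotated start. Those of SNHG17, SNHG1 and SNHG11 began at bases 3, 5 and 10 of the RNA. The letters GCGTG and ACGTG, searched on both strands over 300 bases from 250 before the start, form the core of the sites that HIF can bind. GCGTG was present in 18 of the 28 member promoters, against 36.5% of all promoters, and ACGTG in 4, against 21.4%. The median GC content of the member promoters was 62.2% and that of all promoters 58.7%, and the part of base composition in these shares was not tested. These matches describe the letters of the windows and were not set against the fold changes.

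Levels are given as CPM, counts divided by the scaled library total and set to a common total of 1e+06. The scaling used the TMM factors of edgeR, which correct library totals for shifts in composition. Totals ran from 15998136 to 24209427 counts per library. The factors were 0.770 to 0.795 after CoCl2, 1.11 to 1.12 in control cells and 1.14 to 1.15 after OD, so the CoCl2 libraries stood apart. The members took 0.179% to 0.194% of all counts in control cells, 0.236% to 0.247% after CoCl2 and 0.189% to 0.192% after OD. Of the colon epithelium markers EPCAM, CDH1, VIL1, KRT8, KRT18 and CDX2 were present in every library, KRT20 was low (17 to 132 counts) and CDX1 had 0 counts. After CoCl2 the log2 fold changes of VIL1 (-2.45) and KRT20 (-1.44) were called lower, while EPCAM (0.36), KRT8 (0.35), CDH1 (0.28), KRT18 (0.26) and CDX2 (0.18) were higher by the adjusted p alone. After OD none of the 7 was called. Markers of leukocytes, fibroblasts and muscle (PTPRC, COL1A2, DCN and ACTA2) reached at most 3 counts, CDH5 at most 11, while COL1A1 had 135 to 480, CD14 35 to 101 and PECAM1 20 to 55. A gene was called where the edgeR adjusted p was under 0.05 and the log2 fold change exceeded 1 in size, the thresholds used by the study. In bulk RNA, fewer cells that express a gene and less of its RNA per cell cannot be told apart.

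Within a library, levels can be set beside each other only per length. Per kilobase of exon annotated by GENCODE 44, the mean level in control cells was highest for SNHG1 (51.4 CPM per kb), GAS5 (37.4) and SNHG29 (30.9). Among the tested members it was lowest for CYTOR (0.524), SNHG14 (0.575) and SNHG26 (0.675). After CoCl2, SNHG1 reached 143 CPM per kb, GAS5 72.6, SNHG29 51.9, MALAT1 35.7 and ZFAS1 26.2. After OD the leading level was again that of SNHG1 (42.9), beside GAS5 (42.6) and SNHG29 (38). The exon lengths cover every annotated isoform, retained introns included, so the per-length level of a gene with many long isoforms is a lower estimate.

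Of the 29 tested members, CoCl2 upregulated 5 and downregulated 5. The upregulated members were CYTOR, ZFAS1, MALAT1, SNHG1 and NEAT1, by 2.27-fold to 3.84-fold. The downregulated members were SNHG26, SNHG4, SNHG19, SNHG11 and SNHG18, to between 0.220 and 0.486 of the control level. These counts are 17.2% of the tested members in each direction, and over all 15944 tested genes 19.9% were called higher and 23.4% lower. The median log2 fold change of the members was 0.44, against -0.05 for all genes, and with library size alone in place of the TMM factors it turned to -0.06 while that of all genes moved to -0.55. The CPM of the CoCl2 and control libraries did not overlap for 23 of the 29 members (79.3%), against 83.4% of all genes.

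Long noncoding RNAs without snoRNAs were among the strongest rises. CYTOR stood at 8.66, 9.02 and 10.3 CPM in the control libraries, 34.6, 36.7 and 36.0 after CoCl2 and 11.4, 10.4 and 10.3 after OD. The CoCl2 libraries lay far above all others, and its log2 fold change was 1.94 ± 0.0810 (SE, n = 3 per group, edgeR adjusted p = 9.38e-32). Its near-copy MIR4435-2HG rose likewise, from 11.6 ± 0.208 (SD, n = 3) to 33.8 ± 0.785 CPM, a log2 fold change of 1.54. How reads that fit both genes were counted is not given in the sources used here, so the values of the pair may not be independent. After OD the log2 fold changes were 0.20 for CYTOR and -0.13 for MIR4435-2HG, with adjusted p of 0.0509 and 0.192 in edgeR.

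MALAT1, the speckle RNA, measured 121, 131 and 131 CPM in control cells, 385, 374 and 359.7 after CoCl2 and 166, 165 and 179 after OD. The 3 groups did not overlap, and the CoCl2 level was 2.91-fold the control level (log2 1.54 ± 0.0439, SE, edgeR adjusted p = 1.06e-40). After OD it was 1.33-fold higher, a change that passed the adjusted p (2.03e-12 in edgeR) but not the fold threshold. NEAT1, the paraspeckle scaffold, measured 84.0, 92.1 and 89.2 CPM in control cells, 208, 194 and 201 after CoCl2 and 75.5, 75.6 and 81.1 after OD. Every CoCl2 library was above every control library and every OD library was below them. The log2 fold change was 1.18 ± 0.0464 (SE) after CoCl2 (edgeR adjusted p = 3.49e-33) and -0.19 ± 0.0482 after OD (edgeR adjusted p = 3.53e-04). NEAT1 and MALAT1 lie on chromosome 11, 52.1 kb apart on the same strand. The mature 3' end of MALAT1 and of the long isoform of NEAT1 is not a poly(A) tail, so poly(A) selection captures these RNAs in part, and the counts do not separate the isoforms of NEAT1. TALAM1, an antisense transcript, and a further gene on that strand together overlap 83.7% of the exonic bases of MALAT1, and whether the counting used strand is not given in the sources used here.

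ZFAS1 and SNHG1 were the snoRNA hosts that rose past the threshold. ZFAS1, the host of SNORD12 and 2 related snoRNAs, measured 73.3, 72.4 and 74.8 CPM in control cells, 228, 219 and 205 after CoCl2 and 88.6, 85.9 and 87.5 after OD. Its log2 fold change was 1.57 ± 0.0465 (SE) after CoCl2 (edgeR adjusted p = 1.04e-39) and 0.25 ± 0.0479 after OD (edgeR adjusted p = 6.77e-06). All 9 libraries fell in the order control, OD, CoCl2 without overlap. SNHG1, the host of 8 box C/D snoRNAs, measured 207, 203 and 202 CPM in control cells, 597, 577 and 536 after CoCl2 and 169, 169 and 173 after OD. Here the order was OD, control, CoCl2, again without overlap. The log2 fold changes were 1.48 ± 0.0414 (SE) and -0.26 ± 0.0421, with edgeR adjusted p of 4.49e-41 and 1.90e-07. With library size alone SNHG1 (0.97) and NEAT1 (0.68) fell under the fold threshold, and CYTOR, ZFAS1 and MALAT1 remained above it.

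**Figure D1:**
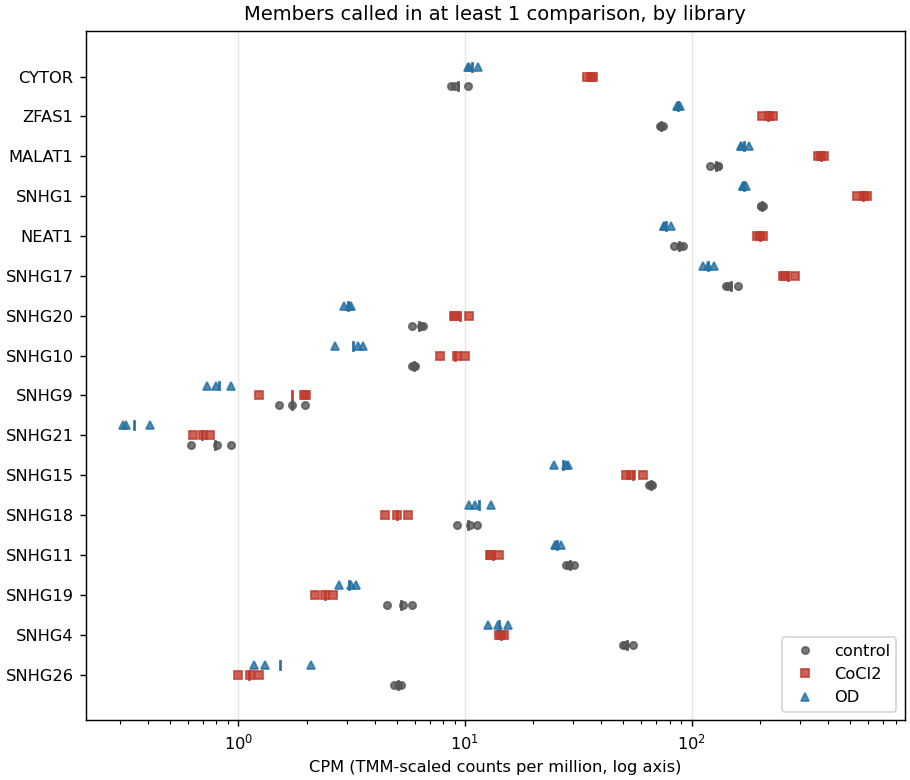
CPM of the 16 members called in at least 1 of the 3 comparisons, on a log axis; each symbol is 1 library (circles control, squares CoCl2, triangles OD) and each short bar is the mean of 3. CYTOR, ZFAS1, MALAT1, SNHG1 and NEAT1 have their CoCl2 libraries to the right of all others. SNHG4 and SNHG26, called lower with both compounds, have both treatments to the left of control. SNHG11, SNHG15 and SNHG19 do too, but were called against control with only 1 compound each.

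GAS5, SNHG17 and SNHG29 are abundant hosts that rose after CoCl2 below the fold threshold. GAS5, named for its build-up in growth-arrested cells, went from 184 ± 17.2 CPM (SD, n = 3) in control cells to 358 ± 9.14 after CoCl2 and 210.3 ± 12.7 after OD. The fold change after CoCl2 was 1.94 (log2 0.96, edgeR adjusted p = 9.80e-23), and it passed the threshold with RLE factors (1.01) and without control replicate 2 (1.03). SNHG29 went from 276 ± 3.40 CPM to 464 ± 8.28 after CoCl2 and 339.7 ± 4.75 after OD, and no group overlapped another. SNHG17, which carries 4 box H/ACA snoRNAs of the SNORA71 group, went from 149 ± 9.89 CPM to 265 ± 17.6 after CoCl2 and 119 ± 6.67 after OD. Its log2 fold changes were 0.83 and -0.33, and the 3 groups did not overlap.

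SNHG17 has a neighbour that moved the opposite way after CoCl2, though not after OD. SNHG11 starts 10.9 kb from the start of SNHG17 on chromosome 20, on the other strand, and carries a further snoRNA of the same group, SNORA71E. SNHG11 measured 28.7, 30.1 and 28.0 CPM in control cells, 13, 12.9 and 14.1 after CoCl2 and 26.4, 25.3 and 25.0 after OD. The CoCl2 libraries were far below the rest, with a log2 fold change of -1.11 ± 0.0769 (SE, edgeR adjusted p = 8.76e-21). After OD the value was -0.18 ± 0.0661, and the OD libraries lay just below the control libraries.

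SNHG4 and SNHG26 were the members with the deepest falls, and they were called lower with each compound. SNHG4, the host of SNORA74 snoRNAs, measured 50.7, 55.4 and 49.8 CPM in control cells, 14.9, 14.4 and 14.2 after CoCl2 and 14, 15.5 and 12.7 after OD. The libraries of the 2 compounds overlapped each other and lay far below control. The log2 fold changes were -1.84 ± 0.0729 (SE) after CoCl2 and -1.88 ± 0.0693 after OD. Their edgeR adjusted p were 5.32e-33 and 1.37e-33. The difference between the compounds was 0.04 ± 0.0860 on the log2 scale (edgeR adjusted p = 0.696). SNHG4 shares 14% of its exonic bases with MATR3 on the same strand, and the row of MATR3, a widely expressed nuclear protein, held at most 1 count in any library. How reads of that locus were assigned is not given in the sources used here, so the row of SNHG4 may not hold all of its reads or only its own.

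SNHG26, the host of SNORD93, was much less abundant. It measured 5.06, 5.20 and 4.88 CPM in control cells, 1.12, 1.24 and 0.996 after CoCl2 and 1.32, 2.09 and 1.17 after OD. All treated libraries were below all control libraries, with log2 fold changes of -2.19 ± 0.203 (SE) and -1.70 ± 0.175 and edgeR adjusted p of 2.87e-15 and 3.52e-13. The comparisons of the compounds with control share the 3 control libraries, so a value in one is not independent of the value in the other.

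The other members called lower after CoCl2 were SNHG19 and SNHG18, hosts of SNORD60 and SNORD123. SNHG19 measured 5.81, 5.34 and 4.54 CPM in control cells, 2.18, 2.40 and 2.62 after CoCl2 and 2.77, 3.15 and 3.30 after OD. Its log2 fold changes were -1.12 ± 0.162 (SE) and -0.77 ± 0.144, the latter under the fold threshold, and neither treated group overlapped control. SNHG18 measured 10.5, 11.3 and 9.20 CPM in control cells, 4.42, 5.03 and 5.61 after CoCl2 and 10.4, 11.1 and 13 after OD. The fall after CoCl2 (-1.04 ± 0.122, SE) was near the threshold, and it was -0.99 with RLE factors, -0.97 without control replicate 2 and -0.95 without CoCl2 replicate 1.

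OD upregulated none of the 29 tested members past the threshold and downregulated 6. In edgeR 8 members were higher at an unadjusted p under 0.05, and DESeq2 called 0 higher. The share of all genes at that unadjusted p was not computed. The 6 were SNHG4, SNHG26, SNHG15, SNHG21, SNHG9 and SNHG20, at 0.272 to 0.491 of the control level. This is 20.7% of the tested members, and over all genes 9.09% were called higher and 4.16% lower. By the adjusted p alone, edgeR found 7 members higher and 14 lower after OD, against 32.3% and 33.3% of all genes. At that threshold CoCl2 had 14 higher and 9 lower, against 40.4% and 42.8%. The median log2 fold change of the members after OD was -0.17, against -0.01 for all genes. The CPM of the OD and control libraries did not overlap for 21 of the 29 members (72.4%), against 68% of all genes.

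SNHG15, the host of SNORA9, measured 67.1, 66.0 and 64.6 CPM in control cells, 61.3, 51.2 and 53.8 after CoCl2 and 28.0, 28.5 and 24.8 after OD. All OD libraries were below all others, and the log2 fold change after OD was -1.28 ± 0.0610 (SE, edgeR adjusted p = 6.73e-28). After CoCl2 it was -0.25 ± 0.0578. SNHG3, the host of SNORA73A and SNORA73B, showed a like pattern below the fold threshold, at 42.1 ± 0.999 CPM (SD, n = 3) in control cells, 37.1 ± 0.406 after CoCl2 and 22.3 ± 2.03 after OD.

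The tested scaRNA hosts were SNHG10, SNHG20 and SNHG21. SNHG20, the host of SCARNA16, measured 5.86, 6.37 and 6.51 CPM in control cells, 8.96, 9.05 and 10.4 after CoCl2 and 3.09, 3.15 and 2.93 after OD. The OD libraries were lowest, the CoCl2 libraries highest, and the log2 fold changes were -1.03 ± 0.134 (SE) and 0.61 ± 0.113. The former was just under the threshold without OD replicate 3 (-0.996) and with library size alone (-0.987), which left 5 members called lower after OD. SNHG10, the host of SCARNA13, measured 5.86, 5.98 and 6.00 CPM in control cells, 10.0, 7.74 and 9.23 after CoCl2 and 3.36, 3.55 and 2.66 after OD. It had the same order without overlap, with log2 fold changes of -0.89 ± 0.138 (SE) after OD and 0.61 ± 0.118 after CoCl2. SNHG21, at 0.346 to 0.785 CPM on average, was lower after OD (-1.17 ± 0.369, SE, edgeR adjusted p = 4.40e-03). DESeq2 gave adjusted p of 0.0649 on 9 libraries and 0.0788 on 6, in a range of 3.85e-03 to 0.0788 over all alternatives. Another gene on the same strand overlaps 72.9% of the exonic bases of SNHG21, and FSD2 on the other strand 34.1%. How reads of that locus were assigned is not given in the sources used here.

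SNHG9, the host of SNORA78, measured 1.72, 1.96 and 1.51 CPM in control cells, 1.99, 1.24 and 1.94 after CoCl2 and 0.727, 0.932 and 0.799 after OD. The OD libraries were below all others (log2 fold change -1.08 ± 0.254, SE, edgeR adjusted p = 1.73e-04), and the CoCl2 libraries overlapped control. Leaving out control replicate 2 or OD replicate 1 brought the fold change after OD to -0.98 or -0.99, just under the threshold.

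**Figure D2:**
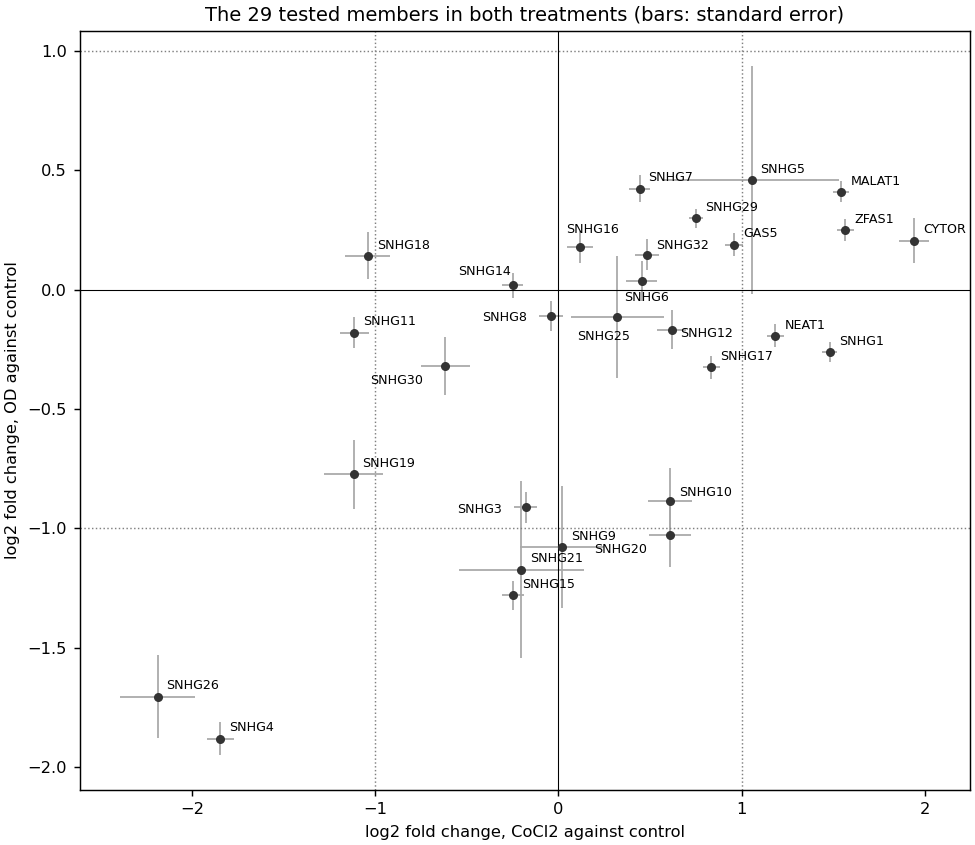
Log2 fold changes of the 29 tested members after CoCl2 (horizontal axis) and OD (vertical axis), each against the same control libraries, with standard errors as bars and the fold threshold as dotted lines. SNHG4 and SNHG26 lie at the lower left, no member lies above the upper dotted line, and SNHG5 has the widest vertical bar.

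The direct comparison of the compounds called 10 members higher after CoCl2 than OD and 1 lower. The 10 were SNHG1, CYTOR, SNHG20, SNHG10, NEAT1, ZFAS1, SNHG17, MALAT1, SNHG9 and SNHG15, from 3.34-fold down to 2.05-fold. They are 34.5% of the tested members, and over all genes 17.5% were called higher and 23.8% lower. The adjusted p alone called 17 members higher and 4 lower, against 40.2% and 43.2% of all genes. SNHG15 stood at the threshold (1.03), with 0.960 without CoCl2 replicate 1, 0.968 without OD replicate 3, 0.967 without a count filter, 0.979 with at least 10 counts in every library and 0.486 with library size alone. SNHG21 (0.97) passed it with RLE factors (1.01), without CoCl2 replicate 3 (1.05) and without OD replicate 1 (1.10). The largest differences were 1.74 ± 0.0418 on the log2 scale (SE) for SNHG1 and 1.74 ± 0.0774 for CYTOR. SNHG18 was the member called lower, with -1.18 ± 0.118 (SE, edgeR adjusted p = 4.70e-14). The median log2 difference of the members was 0.59, against -0.05 for all genes, and with library size alone these were 0.05 and -0.60. That scaling left 3 members called higher and 3 lower, against 1351 and 6026 of all 15944 genes. Libraries of the compounds did not overlap for 21 of the 29 members (72.4%), against 83.8% of all genes.

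The hosts were also grouped by the snoRNAs they carry. Of the 12 box C/D hosts, 2 were called higher and 3 lower after CoCl2 and 1 lower after OD, with median log2 fold changes of 0.29 and 0.09. Over all genes 19.9% were called higher and 23.4% lower after CoCl2, and 9.09% and 4.16% after OD. Of the 8 tested box H/ACA hosts, 2 were called lower after CoCl2 and 3 lower after OD, with medians of -0.11 and -0.62. The 3 tested scaRNA hosts had medians of 0.61 after CoCl2 and -1.03 after OD. GAS5, SNHG12 and SNHG25, which carry both kinds, had none called in either, with medians of 0.62 and -0.11. The grouping was made after the values were seen and was given no test.

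SNHG5, the host of SNORD50A and SNORD50B, varied more between replicates than any of the other 18 members whose mean exceeded 20 CPM. It had 691, 2495 and 1150 counts in the control libraries, 1666, 2773 and 2927 after CoCl2 and 2354, 1790 and 2348 after OD. In CPM these are 37.2, 122 and 64.5, then 104, 215 and 153, then 107, 79.5 and 125, and all groups overlapped. The standard deviation of log2(CPM + 1) within a group was 0.605, the largest of the 7219 genes whose mean exceeded 20 CPM, a floor chosen after seeing the data. The next, PFDN4, had 0.245, and the other 18 had 0.0214 (SNHG29) to 0.155 (SNHG6), against a median of 0.0630 over all ranked genes. The log2 fold change of SNHG5 after CoCl2 was 1.05 ± 0.475 (SE) with an edgeR adjusted p of 0.0788. It passed in DESeq2 on all 9 libraries (1.09, adjusted p = 0.0462) and in edgeR without control replicate 2 (1.62, adjusted p = 0.0165), in a range of 0.0165 to 0.319 over all alternatives. The cause of the spread was not tested.

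**Figure D3:**
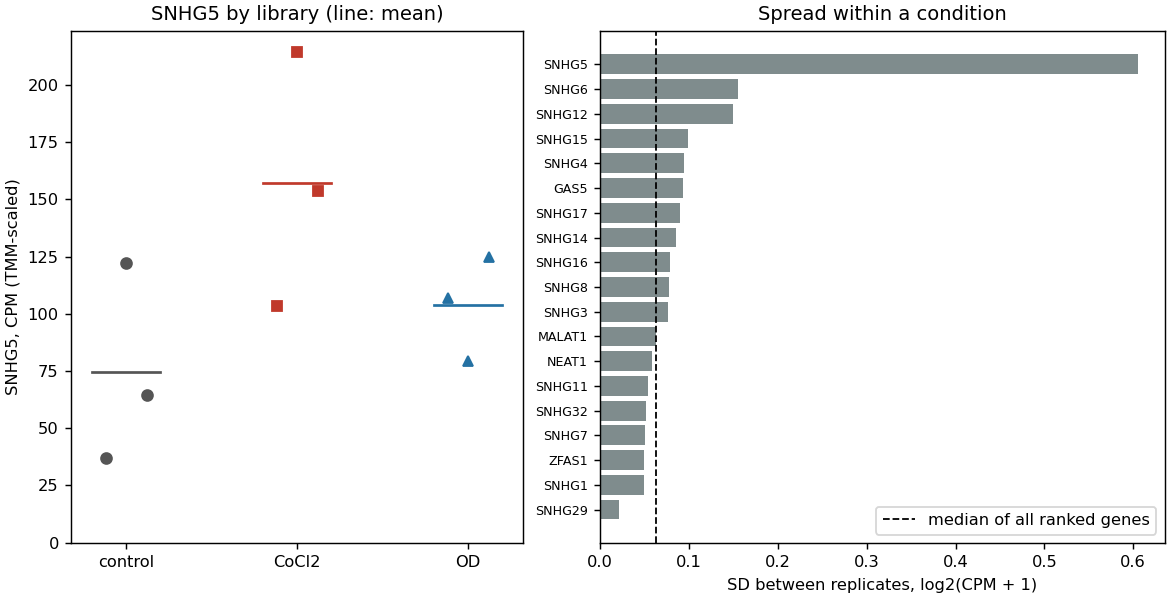
Left, SNHG5 in CPM by library with the mean of each group as a line; right, the standard deviation of log2(CPM + 1) between replicates for the 19 members whose mean exceeded 20 CPM, with the median of all such genes as a dashed line. SNHG5, at 0.605, is far to the right of SNHG6, at 0.155.

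The remaining members moved by smaller amounts. SNHG7, the host of SNORA17A and SNORA17B, was at 43.0 ± 1.61 CPM (SD, n = 3) in control cells, 58.3 ± 2.64 after CoCl2 and 57.6 ± 1.03 after OD, and both rises passed the adjusted p alone (1.60e-10 and 5.75e-10 in edgeR). SNHG32, SNHG6 and SNHG12 were 1.40-fold, 1.37-fold and 1.53-fold the control level after CoCl2 and passed the adjusted p alone, and with library size alone SNHG7, SNHG32 and SNHG6 turned to -0.06, -0.02 and -0.05. SNHG14 was at 0.840 and SNHG30 at 0.652 of the control level after CoCl2, and both passed the adjusted p alone, with SNHG30 called lower (-1.12) with library size alone. SNHG16 (log2 fold changes 0.12 after CoCl2 and 0.18 after OD), SNHG8 (-0.04 and -0.11) and SNHG25 (0.32 and -0.11) passed neither threshold after CoCl2. Of these, only SNHG16 passed the adjusted p after OD (0.0187 in edgeR). Opposite-strand genes cover 58.9% of the exonic bases of SNHG6, 37.6% of those of SNHG8, 36.4% of those of ZFAS1 and 30.3% of those of SNHG7.

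**Figure D4:**
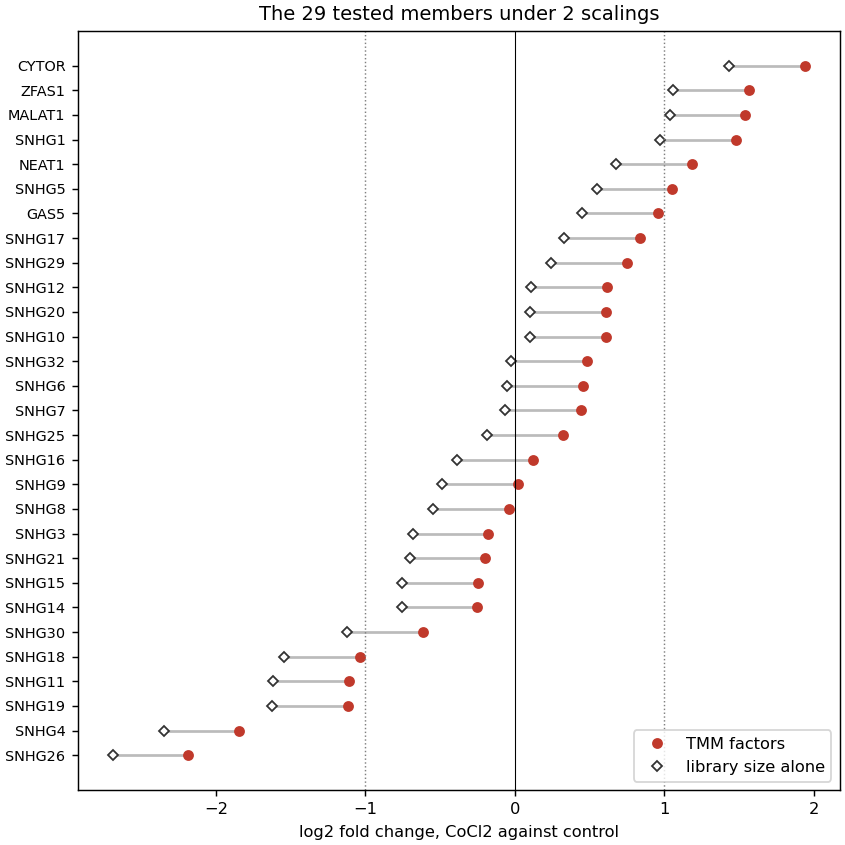
Log2 fold change after CoCl2 against control for the 29 tested members, scaled by TMM factors (filled circles) or by library size alone (open diamonds), with dotted lines at the fold threshold. Every member moves left by a like amount, so that CYTOR, ZFAS1 and MALAT1 stay beyond 1 and SNHG1 and NEAT1 do not.

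The genes that work with these RNAs were followed through lists written with earlier results of these data known. Their counts stand beside the shares over all genes, 19.9% called higher and 23.4% lower after CoCl2 and 9.09% and 4.16% after OD. No such share was computed for the counts at an unadjusted p. Of 50 protein-coding genes that also carry snoRNAs, CoCl2 upregulated 6 and downregulated none (8 were lower at an unadjusted p under 0.05 in edgeR, and DESeq2 called 0), with a median log2 fold change of 0.48. With RLE factors 11 were called higher and none lower, against 3337 and 3546 of all 15944 genes. With library size alone 2 were higher and 2 lower, with a median of -0.02. Over all genes that scaling called 1833 higher and 5839 lower, with a median of -0.55. The largest rises were HSPA8, a chaperone, from 4062.7 ± 87.2 CPM (SD, n = 3) to 23459 ± 1683 (log2 fold change 2.53), and EIF4A1, an initiation factor (1.60), whose row held just 42 to 249 counts. So few counts for a widely used initiation factor may mean that the row misses much of the gene. RPL10 (1.00) and RPL13A (1.01), ribosomal proteins, were the smallest of the 6. OD upregulated none of the 50 (7 at the unadjusted p, 0 in DESeq2) and downregulated 2, NOP56 (-1.20) and RPL17 (-1.15), with a median of -0.12. RPL17, a ribosomal protein, had only 86 to 213 counts, and the same holds for it.

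Of 16 proteins of snoRNA particles and their assembly, CoCl2 upregulated SHQ1 (1.08), a factor of H/ACA assembly, and downregulated RUVBL1 (-1.53), a helicase-like assembly factor. After OD, NOP56 (-1.20), a core protein of C/D particles, and RUVBL1 (-1.16) were called lower and none higher (1 at the unadjusted p, 0 in DESeq2). The medians were -0.05 after CoCl2 and -0.64 after OD. By the adjusted p alone, 14 of the 16 were lower after OD and 1 higher, against 33.3% and 32.3% of all genes. With library size alone CoCl2 called none of the 16 higher and 3 lower, against 1833 and 5839 of all 15944 genes. Of 18 nonsense-mediated decay factors, CoCl2 upregulated SMG1, the kinase of the pathway, from 216 ± 16.9 to 826 ± 36.7 CPM (log2 fold change 1.93), and EIF4A3 (1.30), a core of the exon junction complex. MAGOHB (-1.02), of the same complex, was called lower, and OD called none in either direction (6 higher and 9 lower at the unadjusted p, 0 in DESeq2). The median after CoCl2 was 0.44, and it turned to -0.06 with library size alone, while that of all genes moved to -0.55.

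Of 14 paraspeckle proteins, EWSR1 (1.79) was called after CoCl2 and none after OD (12 lower at the unadjusted p, 0 called in DESeq2). By the adjusted p alone 12 of the 14 were lower after OD and none higher, against 33.3% and 32.3% of all genes. The medians were 0.18 after CoCl2 and -0.48 after OD. With library size alone the CoCl2 median turned to -0.32, with 1 called higher and 3 lower, against 1833 and 5839 of all 15944 genes. Of 10 nuclear speckle proteins, SON (1.55), ACIN1 (1.54) and SRRM2 (1.43) were called higher after CoCl2, and SRSF1 (-1.20), a splicing factor, was called lower after OD. By the adjusted p alone 9 of the 10 were lower after OD and none higher. The medians were 0.91 after CoCl2 and -0.49 after OD, and both kept their sign with library size alone (0.40 and -0.45). In the direct comparison, 8 of the 10 speckle genes were called higher after CoCl2 than OD and none lower, against 17.5% and 23.8% of all genes. The count called higher was 4 with library size alone, against 1351 of all 15944 genes.

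Of 20 tested long noncoding RNAs outside the members, CoCl2 called 6 higher and 2 lower. With library size alone 4 were higher and 8 lower, with a median of -0.56. Over all 15944 genes that scaling called 1833 higher and 5839 lower, with a median of -0.55. MIR22HG, a stress-responsive host of miR-22, rose from 52.8 ± 1.09 CPM (SD, n = 3) to 384 ± 13.1 (log2 fold change 2.87). LINC-PINT was at 0.125 ± 0.0885 CPM in control cells and 1.59 ± 0.306 after CoCl2, and its row held between 1 and 37 counts. HOTAIR (-1.83) and JPX (-1.48) were called lower. After OD, KCNQ1OT1 (1.14) and LINC00511 (1.07) were called higher, and MIR17HG (-1.39) and HOTAIR (-1.35) lower. The medians were -0.06 and -0.08, and H19 and MEG3 had at most 2 counts.

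**Figure D5:**
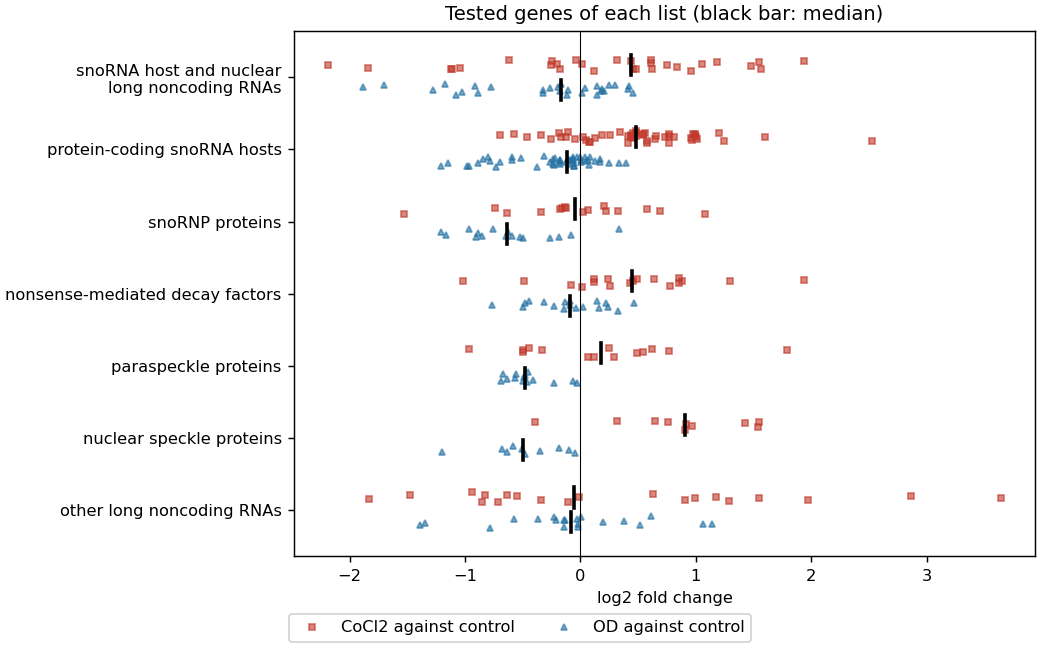
Log2 fold changes against control of the tested genes in the members and in 6 related lists, CoCl2 as squares, OD as triangles and the median as a black bar. The medians lie at 0.44 and -0.17 for the members and at 0.91 and -0.49 for nuclear speckle proteins.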

How the data were processed

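Messenger RNA was measured in 9 uCaco-2 libraries. Libraries of differentiated cells were not analysed here. Per the labels and the study's methods, the authors made TruSeq Stranded mRNA libraries, checked reads with FastQC 0.11.9, trimmed them with cutadapt 2.10, mapped them on GRCh38 with STAR 2.7.5b and counted them on GENCODE 34. The deposited values are raw counts per gene symbol, 1 column per library, with no normalization. The counting tool, its strand setting and the treatment of reads matching more than 1 gene are not given in the sources used here.

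In R 4.3.3, edgeR 4.0.16 computed TMM factors, kept 15944 of 60591 symbols by filterByExpr and fitted a robust quasi-likelihood model over the 9 libraries with 1 mean per group. Benjamini-Hochberg adjustment covered all genes tested. The fit was tested on simulated counts. Each pair of replicates differed beyond sampling noise (chi-square per degree of freedom 1.82 to 3.32), so none were merged. Standard errors with CoCl2 ran from 0.0391 on the log2 scale for SNHG29 to 0.475 for SNHG5, whose replicates spread widely, and the next largest was 0.340 for SNHG21, which has few counts. All members may be named, with MIR4435-2HG and, from each list, the called genes with the 2 largest and 2 smallest fold changes per compound. PFDN4 and MATR3 were named after their values were seen. The members and lists were chosen with earlier results of these data known. Gene positions and exon lengths came from GENCODE 44. The number and kind of snoRNAs in each host and the promoters came from RefSeq. The snoRNA rows sorted by overlap with host exons were those of snoRNAs and scaRNAs in GENCODE 44. Alternatives were DESeq2 1.42.0 on 9 or 6 libraries, edgeR on 6 libraries, RLE factors, library size alone, 2 other count filters, the adjusted p alone, the replicate number as a block and leaving out each library.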

Additional observations from a re-analysis of the deposited data

How the results depend on the processing

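With library size alone the median of all genes fell to -0.55 with CoCl2 against control and -0.60 with CoCl2 against OD, and the share of calls that were higher went from 46% to 23.9% and from 42.4% to 18.3%. Under it 3 members were higher and 6 lower with CoCl2 than control (median -0.063). Against OD, 3 were higher and 3 lower with CoCl2 (median 0.052). Over all 15944 genes it called 1833 higher and 5839 lower against control, and 1351 higher and 6026 lower against OD. With OD it left 5 members lower, without SNHG20 (-0.987). Against control it reversed SNHG32 (-0.023), SNHG6 (-0.051), SNHG7 (-0.063), SNHG9 (-0.49), SNHG25 (-0.18) and SNHG16 (-0.39). Against OD it reversed SNHG8 (-0.48), SNHG4 (-0.51), SNHG32 (-0.21), SNHG6 (-0.13), SNHG7 (-0.53), SNHG29 (-0.095) and SNHG25 (-0.11). That follows from the TMM factors, which are lower in the CoCl2 libraries.

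The adjusted p alone gave 14 members higher and 9 lower with CoCl2, 7 and 14 with OD, and 17 and 4 in the direct comparison. The direct median of 0.59 was 0.52 on 6 libraries, 0.53 without a count filter and 0.47 with at least 10 counts in every library. Leaving out each library gave 5 to 7 members higher and 4 to 5 lower with CoCl2, 0 higher and 5 to 6 lower with OD, and 9 to 11 higher and 1 lower in the direct comparison. The medians then ran from 0.38 to 0.48, from -0.17 to -0.088 (the latter without control replicate 1) and from 0.47 (without CoCl2 replicate 2) to 0.695 (without CoCl2 replicate 1).

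Members near 0 changed sign elsewhere. With CoCl2 against control SNHG8 was 0.0084 with RLE factors, and SNHG9 was -0.0077 with DESeq2 on 6 libraries, -0.046 without a filter and -0.010 with at least 10 counts. In the direct comparison SNHG4 and SNHG7 were -0.029 and -0.047 without a filter and -0.017 and -0.034 with at least 10 counts. Leaving out a library took SNHG8 from -0.087 to 0.018 and SNHG9 from -0.075 to 0.18 with CoCl2, SNHG6 from -0.064 to 0.089 and SNHG14 from -0.029 to 0.087 with OD, and SNHG4 from -0.036 to 0.11 and SNHG7 from -0.0097 to 0.061 in the direct comparison. The cause was not tested.

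With the replicate number as a block, the direct median was 0.52, the counts of called members were as without it (5 and 5, 0 and 6, 10 and 1) and no single member changed its call. Deviations from the group means had correlations of -0.0293 to 0.0935 between same-numbered libraries and -0.101 to 0.0902 between differently numbered ones. No pairing by number was seen, and with 3 libraries per group a weak one could be missed. Depth limits SNHG21, SNHG9, SNHG25 and SNHG26, which average at most 5.04 CPM in any group.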

Other observations

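Most snoRNA rows of the members held no counts in these poly(A)-selected libraries. The rows are those of snoRNAs and scaRNAs that GENCODE 44 places in a member, which include none of the 11 RefSeq snoRNAs of GAS5. All 70 snoRNA rows that lay wholly inside annotated exons of their host had 0 counts in every library, as did 44 of the 57 rows outside host exons. Those 44 lay in SNHG14, most of them copies of SNORD115, except for SNORA70 in SNHG27 and SCARNA15 in SNHG21. Every other row outside the exons of a host other than SNHG14 held some counts. How reads that match a snoRNA and an exon of its host were counted is not given in the sources used here, so a row at 0 does not show that the snoRNA was absent. Reads from a snoRNA and reads from an unspliced host intron cannot be told apart in such rows.

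Among rows outside host exons with at least 50 counts in all, SNORD12C in ZFAS1 had 4, 5 and 4 counts in the control libraries, 25, 18 and 17 with CoCl2 and 1, 4 and 2 with OD. The CoCl2 libraries were above all others (log2 fold change 2.42, edgeR adjusted p = 1.89e-07). SNORA71B in SNHG17 had 23, 40 and 32 counts, then 56, 36 and 60, then 41, 19 and 39. These raw counts, not scaled for library totals, overlapped between groups. In the scaled fit its log2 fold change with CoCl2 was 0.92 (edgeR adjusted p = 1.59e-04). The values were 0.99 for SNORD99 in SNHG12, 0.90 for SNORA73B in SNHG3 and -0.25 for SNORD104 in SNHG25. Their edgeR adjusted p were 3.25e-03, 4.05e-03 and 0.312. Neither SNORA71B nor these rows passed the fold threshold. Over the 9 libraries SNORD104 had 286 counts, above the 219 of SNHG25 itself. These rows were chosen after their values were seen.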
